A study of Camellia sinensis with 12 samples.

Results

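The nutrient responsive miRNA families of Xinyang Maojian (XYMJ) green tea were described across 4 tissues of the young shoot. All miRNA IDs named MIR395, MIR397, MIR398, MIR399, MIR408, MIR827 or MIR857 were taken, with any subfamily number, as in cas-MIR398_2-1. They came to 40 of the 650 listed IDs, which fell into 5 of the 7 families, and no ID used here carried the name MIR827 or MIR857. MIR395 had 14 IDs, MIR398 had 10, MIR399 had 8, MIR408 had 7 and MIR397 had 1. Together they held 25369 counts, or 0.390% of all counts. In total, 14 of the 40 IDs had 10 or more counts summed over all libraries and were tested. The other 26 held 77 counts between them, at most 9 each, and 8 had a single count. The members closest to the limit of 10 were cas-MIR398-5 with 9 counts, which was left out, and cas-MIR399-6 with 20, which was kept.

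Plant miRNAs bind mRNAs with near perfect complementarity and lead to their cleavage or to less translation. In Arabidopsis, miR395 accumulates when sulfate is short and targets ATP sulfurylases and a sulfate transporter. miR397, miR398, miR408 and miR857 accumulate when copper is short and target mRNAs of copper proteins, namely laccases for miR397 and miR857, copper/zinc superoxide dismutases for miR398, and plantacyanin and laccases for miR408. miR399 accumulates when phosphate is short, moves in the phloem and targets the mRNA of the ubiquitin-conjugating enzyme that restrains phosphate uptake, while miR827 targets a protein that limits phosphate transport. These roles are background from other plants. No nutrient treatment was part of this study, and the mRNA targets were not analysed here.

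Buds (sBud), the uppermost leaf under the bud (sL1), the more mature leaf under that one (sL2) and the piece of stem joining these leaves (sS1) were collected from 3-year-old plants of the XYMJ variety in a tea garden. Each tissue had 3 libraries described as biological replicates, and how many plants went into a library is not given in the sources used here. All plants were untreated, so every comparison is between tissues. The sample titles and group tags gave the tissues, whereas the deposited tissue field reads Leaf throughout. As the files count miRNAs only, mRNA markers of the tissues could not be checked. Tissue names below are those of the sample titles, and whether sL2 and sS1 name the tissue collected was not tested. A library held from 387015 to 746562 counts, and a count of 0 still allows up to 3 counts, that is 4.26 to 8.51 CPM (counts scaled to a common library size, with the TMM factors of edgeR). This covers counting error only, since PCR products are not independent molecules. In whole tissue, fewer cells that make a miRNA and less of it per cell cannot be told apart. The IDs do not say which arm of a precursor was counted, reads shared by close relatives may have been split between IDs, and no mature sequences were used here.

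By the means of the tissues, the nutrient families showed 3 patterns. MIR395 was highest in sL2, MIR398 and MIR408 were lowest in sBud and highest in sS1, and MIR399 was lowest in sL2. Ordered by mean, the family sum of MIR395 was 2208 ± 441 CPM in sL2 (mean ± SD, n = 3), 1348 ± 830.3 in sBud, 862 ± 245 in sS1 and 752 ± 404 in sL1. MIR398 had 3611 ± 1336 CPM in sS1, 2370.4 ± 1823 in sL1, 1292 ± 1009 in sL2 and 719 ± 259.8 in sBud. MIR408 had 1038 ± 708 CPM in sS1, 459 ± 132 in sL2, 358 ± 206 in sL1 and 67.7 ± 77.2 in sBud. The rarest of the 4 was MIR399, with 169 ± 135 CPM in sBud, then 118 ± 41.8 in sL1, 54.3 ± 2.89 in sS1 and last 33.8 ± 17.5 in sL2. MIR397 had only 3 counts, 1 in sL2 and 2 in sS1, and was not tested.

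**Figure D1:**
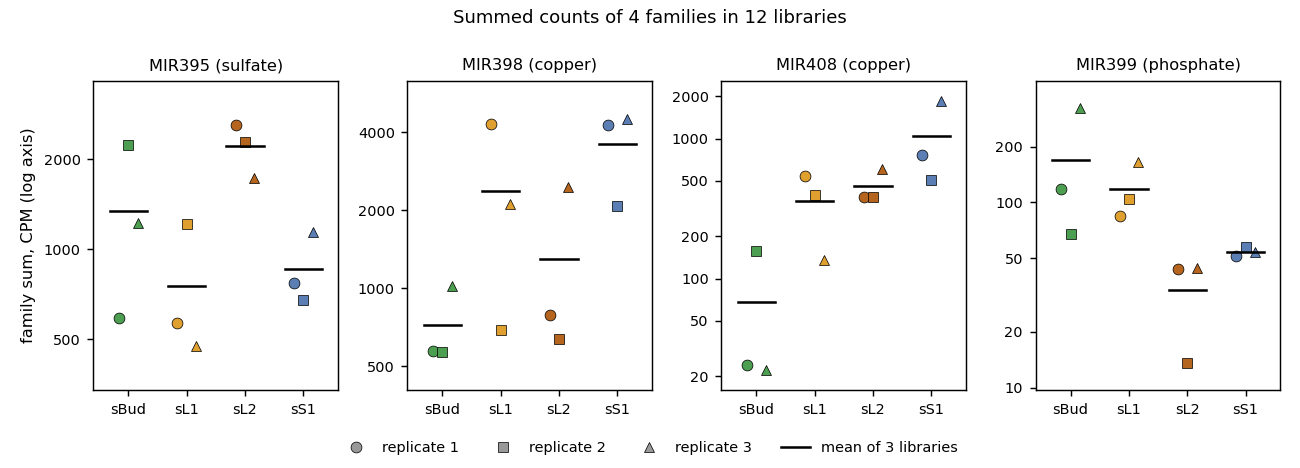
Sums of the MIR395, MIR398, MIR408 and MIR399 families in CPM (log axis, a different range in each panel) for each of the 12 libraries, by tissue. Symbols mark the replicate and horizontal lines the mean of 3 libraries. MIR395 means run from 752 CPM in sL1 to 2208 in sL2, and MIR408 means from 67.7 CPM in sBud to 1038 in sS1.

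Each of the 4 family sums differed among the tissues (edgeR quasi-likelihood F test over the 4 tissues, adjusted p = 0.0162 for MIR395, 0.0212 for MIR398, 0.0111 for MIR399 and 0.00567 for MIR408). Such a difference was common in these tissues, as 57.7% of the 52 rows tested passed an adjusted p of 0.05 and 59.6% an unadjusted one. Rows are sums by family name, and an ID without a family name was kept as a row of its own. Without sL2 replicate 2, sS1 replicate 1 or sS1 replicate 3, 3 of the 4 family sums still had an unadjusted p below 0.05. Pairs of tissues were then compared. A differentially expressed miRNA (DEM) needed a change of more than 1 on the log2 scale and p below 0.05, and the adjusted p is given beside it. Fold changes are of the tissue named first over the other.

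MIR395, the sulfate family, was carried by cas-MIR395-5, which made up 85.7% of its counts. This ID stood at 545, 2079.6 and 1064 CPM in the 3 sBud libraries, at 493, 1157 and 360.4 CPM in sL1, at 2244, 1826 and 1383 CPM in sL2 and at 642, 617 and 965 CPM in sS1. All sL2 libraries lay above those of sL1 and sS1, while 1 sBud library was as high as sL2. In sL1 vs. sL2 its log2 fold change was -1.44 (SE 0.47, adjusted p of edgeR = 0.0258), and in sS1 vs. sL2 it was -1.29 (SE 0.47, adjusted p of edgeR = 0.0415). Without sL2 replicate 1, the value for sS1 vs. sL2 was -1.01 and no longer passed the test. No other comparison of cas-MIR395-5 gave a DEM.

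The lesser members of MIR395 were also highest in sL2. cas-MIR395-1 had 29.5, 52.3 and 75.6 CPM in sBud, 36.1, 45.5 and 22.7 CPM in sL1, 146, 112 and 88.0 CPM in sL2 and 32.8, 48.6 and 91.3 CPM in sS1. cas-MIR395-14 had 11.1, 79.7 and 79.1 CPM in sBud, 38.5, 9.88 and 90.8 CPM in sL1, 201, 323 and 253 CPM in sL2 and 92.2, 5.21 and 78.9 CPM in sS1. Thus every sL2 library of cas-MIR395-14 was above every library of the other tissues, and the others spread widely among themselves. In sL1 vs. sL2, the log2 fold change was -1.71 for cas-MIR395-1 (SE 0.47, adjusted p of edgeR = 0.00917) and -2.51 for cas-MIR395-14 (SE 0.86, adjusted p of edgeR = 0.0312). Without sL1 replicate 2 or 3, the latter value was -1.89 or -3.44 and stayed a DEM. In sBud vs. sL2, cas-MIR395-14 had -2.20 (SE 0.84, adjusted p of edgeR = 0.0456), which fell to -1.66 and below the call without sBud replicate 1. cas-MIR395-1 in sBud vs. sL2 (-1.13) and in sS1 vs. sL2 (-1.01), and cas-MIR395-14 in sS1 vs. sL2 (-2.13), were DEMs on the unadjusted p only (adjusted p of edgeR = 0.0556, 0.0860 and 0.0537). These 3 calls depended on single libraries, and the first was lost without sBud replicate 1 or 2 or sL2 replicate 1 or 2 (-0.78, -1.13, -0.77 and -1.05). The second lost its call without any 1 of 8 libraries, with values from -0.98 to -0.70, and without the filter on counts (-0.97), and the third without sL2 replicate 2 (-1.83) or sS1 replicate 2 (-1.58). The remaining tested member, cas-MIR395-12, had 26 counts, of which 7 were in sBud replicate 2, 14 in the sL2 libraries and 4 in sS1 replicate 2, and gave no DEM.

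**Figure D2:**
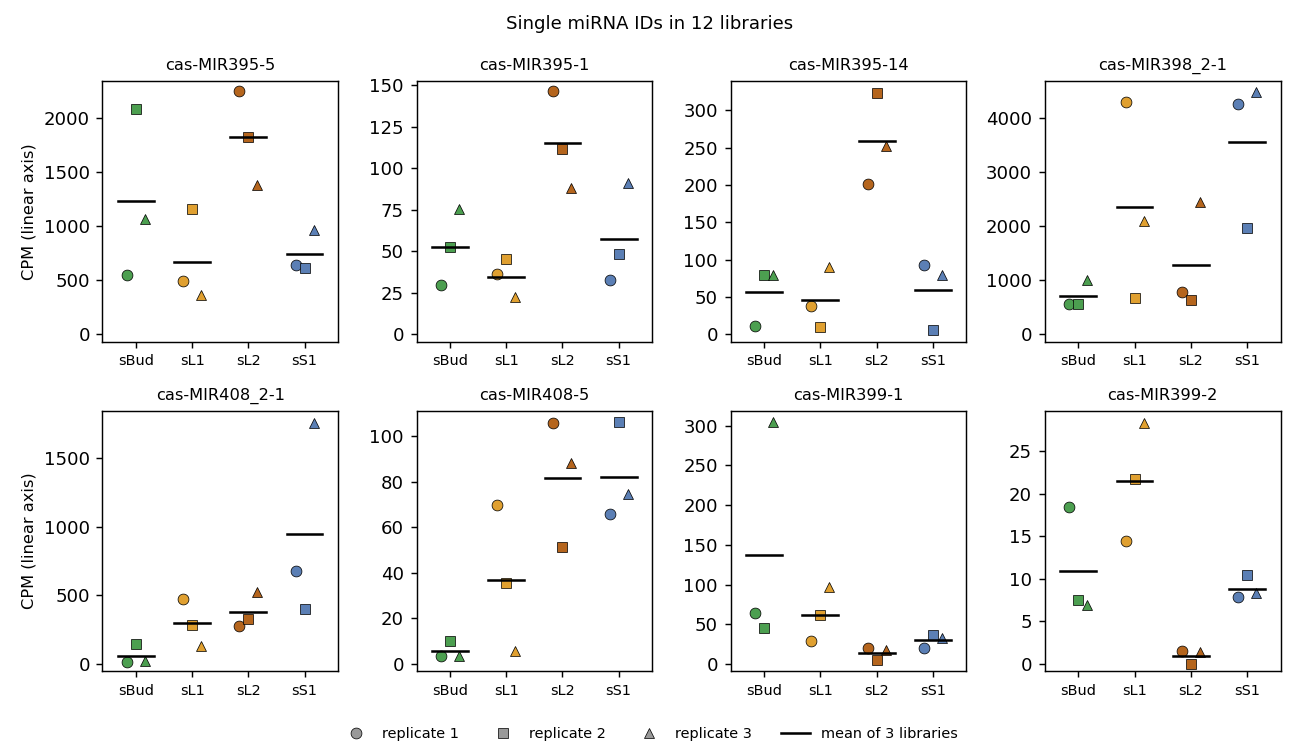
CPM of 8 single miRNA IDs (linear axis, a different range in each panel) for each of the 12 libraries, by tissue. Symbols mark the replicate and horizontal lines the mean of 3 libraries. cas-MIR395-14 lies between 201 and 323 CPM in sL2 and at most at 92.2 CPM elsewhere, and cas-MIR408-5 lies below 10 CPM in every sBud library.

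Of the copper families, MIR398 was by count nearly a single ID. cas-MIR398_2-1 held 12655 of the family's 12774 counts, or 99.1%, and was the most counted of all 40 members. Its levels were 568, 558 and 1005 CPM in sBud, 4291, 680.1 and 2094 CPM in sL1, 783, 629.7 and 2446 CPM in sL2 and 4253, 1959.8 and 4489.9 CPM in sS1. Every sS1 library was above every sBud library, whereas sL1 and sL2 had libraries at the level of sBud and others several times higher. In sBud vs. sS1 the log2 fold change was -2.33 (SE 0.62, adjusted p of edgeR = 0.0125). sBud vs. sL1 (-1.73) and sS1 vs. sL2 (1.47) gave DEMs on the unadjusted p only (adjusted p of edgeR = 0.0776 and 0.0673). The first was lost without sBud replicate 1 (-1.55), sBud replicate 2 (-1.58) or sL1 replicate 1 (-0.94), and with limma-voom (-1.38). The second was lost without sL2 replicate 1 (1.34), sL2 replicate 2 (1.26), sS1 replicate 1 (1.26) or sS1 replicate 3 (1.36), and without TMM factors (1.18), while it was 2.40 without sL2 replicate 3. In the order sS1, sL1, sL2 and sBud of the means, no pair of neighbours gave a DEM.

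The other tested MIR398 members were rare. cas-MIR398-3 had 60 counts in sS1 replicate 2, a single count in sL1 replicate 3 and 0 in the other libraries. It was called in sS1 against each of the other tissues (adjusted p of edgeR = 0.0616 against sBud, 0.294 against sL1 and 0.0363 against sL2), but the calls rest on 1 library, without which only 1 count is left, so no fold change is given. cas-MIR398-4 had 30 counts, at most 6 in a library, and gave no DEM.

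MIR408 was also led by an ID of its second subfamily, cas-MIR408_2-1, with 86.6% of the counts. It had 16.6, 147 and 18.9 CPM in sBud, 474, 283 and 131 CPM in sL1, 279, 329 and 521 CPM in sL2 and 675, 398 and 1760.2 CPM in sS1. The sBud libraries lay below those of sL2 and sS1 without overlap, and 1 of them slightly above the lowest of sL1. sBud was lower than sS1 by a log2 fold change of -4.00 (SE 0.82, adjusted p of edgeR = 0.00221), or 16.0-fold. It was also lower than sL2, by -2.68 (SE 0.78, adjusted p of edgeR = 0.0123). For sBud vs. sL1, -2.33 (SE 0.78) was a DEM on the unadjusted p (adjusted p of edgeR = 0.0601). As sBud replicate 2 was far above the other sBud libraries, leaving it out moved these values to -5.71, -4.39 and -4.04, and without sS1 replicate 3 the value for sS1 was -3.16. In sS1 vs. sL1, a DEM with 1.67 (SE 0.73, adjusted p of edgeR = 0.294) was lost without sL1 replicate 2 (1.55), sL1 replicate 3 (1.30) or sS1 replicate 3 (0.78), and also without TMM factors (1.51), without the 5 most abundant IDs (1.47) or with the filterByExpr filter (1.49).

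A less abundant member, cas-MIR408-5, showed the low bud level with less scatter. Its levels were 3.69, 9.96 and 3.44 CPM in sBud (2, 4 and 2 counts), 69.7, 35.6 and 5.68 CPM in sL1, 106, 51.3 and 88.0 CPM in sL2 and 65.7, 106 and 74.7 CPM in sS1. All sL2 and sS1 libraries were well above those of sBud, and sL1 spread over the whole range. The log2 fold change was -2.75 in sBud vs. sL1 (SE 0.74, adjusted p of edgeR = 0.0200), -3.87 in sBud vs. sL2 (SE 0.72, adjusted p of edgeR = 0.000649) and -3.88 in sBud vs. sS1 (SE 0.72, adjusted p of edgeR = 0.00108). Without sL1 replicate 1 the value for sBud vs. sL1 was -1.90. These calls, and those of cas-MIR408_2-1 against sBud, passed the DEM thresholds on the unadjusted p under every alternative run for them. cas-MIR408-2 had 39 counts in sL1 replicate 2, 17 in sS1 replicate 1, 1 in sS1 replicate 3 and 0 elsewhere. It was a DEM in sL1 against sBud and sL2 on the unadjusted p (adjusted p of edgeR = 0.126 and 0.0506), on a single library, without which no count is left in these tissues.

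**Figure D3:**
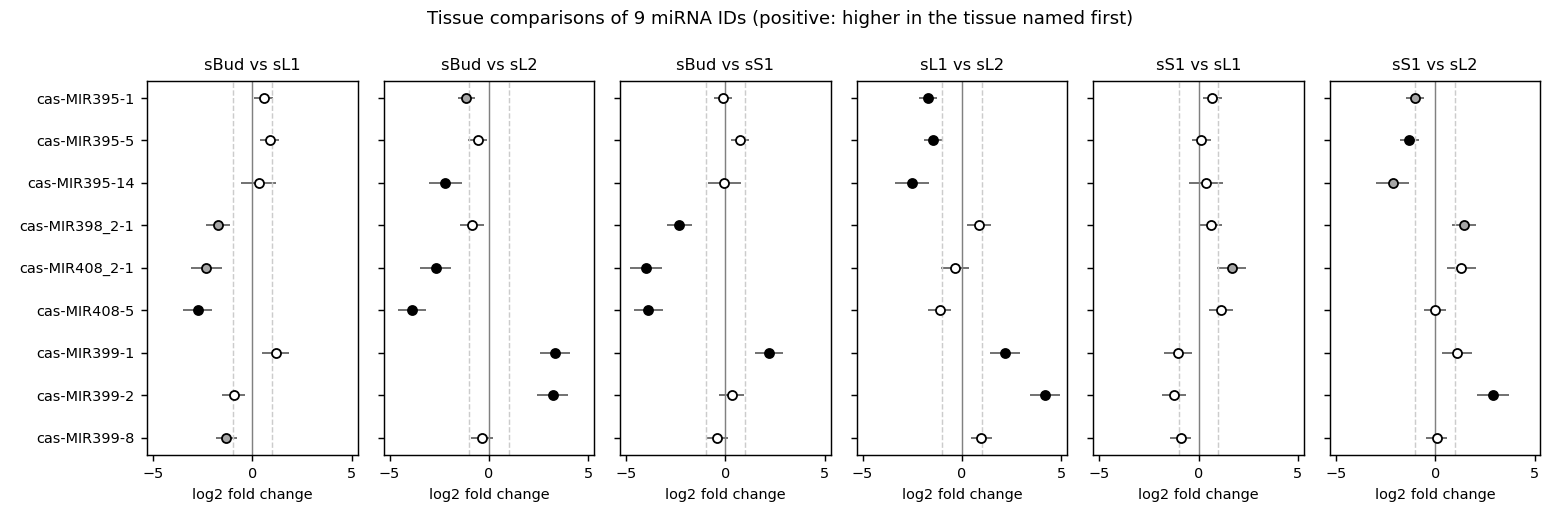
Log2 fold change of 9 miRNA IDs in the 6 comparisons of tissues, from the edgeR fit; positive values are higher in the tissue named first, bars show 1 SE and dashed lines a log2 fold change of 1 in either direction. Black points are DEMs with an adjusted p below 0.05, grey points DEMs on the unadjusted p only and open points no DEMs. The MIR408 IDs lie left of 0 in all 3 comparisons with sBud first, and cas-MIR399-1 and cas-MIR399-2 lie right of 0 against sL2.

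MIR399, the phosphate family, was the least counted of the families tested, with 586 counts, and its members differed from each other. cas-MIR399-1, with 65.7% of the counts, had 64.5, 44.8 and 304 CPM in sBud, 28.8, 61.3 and 96.5 CPM in sL1, 19.6, 4.53 and 17.0 CPM in sL2 and 20.3, 36.5 and 33.2 CPM in sS1. Its sBud and sL1 libraries lay above all of sL2, and sBud replicate 3 stood apart at the top. The log2 fold change was 3.31 in sBud vs. sL2 (SE 0.74, adjusted p of edgeR = 0.00239) and 2.15 in sL1 vs. sL2 (SE 0.75, adjusted p of edgeR = 0.0326). For sBud vs. sS1 it was 2.21 (SE 0.70, adjusted p of edgeR = 0.0286). Without sBud replicate 3 the values against sL2 and sS1 were 2.07 and 0.91, the latter no DEM, and without sL1 replicate 3 that for sL1 vs. sL2 was 1.68 and no DEM.

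cas-MIR399-2 was nearly missing from the libraries labelled sL2. It had 18.4, 7.47 and 6.87 CPM in sBud, 14.4, 21.7 and 28.4 CPM in sL1 and 7.82, 10.4 and 8.30 CPM in sS1. The sL2 libraries held 1, 0 and 1 counts, all below every library of the other tissues. Summed over libraries, its level was 21.5 times that of sL2 in sL1 (27 against 2 counts, exact 95% interval 5.40 to 187), 11.3 times in sBud (2.68 to 101) and 8.97 times in sS1 (2.09 to 80.8), with intervals for counting error only. The adjusted p of edgeR was 0.000541 for sL1, 0.00416 for sBud and 0.00985 for sS1.

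cas-MIR399-8 had another order, with 33.7, 19.8 and 31.2 CPM in sL1, above the 16.6, 9.96 and 6.87 CPM of sBud, and with 15.1, 9.06 and 18.5 CPM in sL2 and 23.4, 10.4 and 10.4 CPM in sS1. In sBud vs. sL1 it was a DEM on the unadjusted p, with a log2 fold change of -1.31 (SE 0.54, adjusted p of edgeR = 0.126). The call was lost without sBud replicate 2 (-1.25), sBud replicate 3 (-1.07), sL1 replicate 1 (-1.12) or sL1 replicate 3 (-1.25), without the filter on counts (-1.26) and with DESeq2 (-1.29). cas-MIR399-6 had 11 counts in sBud, 4 each in sL1 and sL2 and 1 in sS1. It was a DEM in sBud vs. sS1 (12.2 times as high, exact 95% interval 1.78 to 527, adjusted p of edgeR = 0.108), but not without sBud replicate 1, sS1 replicate 1 or sS1 replicate 2, where the fitted log2 fold change was 2.01, 2.68 and 2.79, and not with DESeq2.

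Shares within a family do not depend on the scaling between libraries. cas-MIR399-1 made up 71.8 ± 20.2% of the MIR399 counts in sBud (mean ± SD, n = 3), 54.9 ± 13.4% in sS1, 50.5 ± 14.0% in sL1 and 39.0 ± 5.75% in sL2. The share of cas-MIR399-8 went from 10.3 ± 7.12% in sBud to 47.7 ± 16.8% in sL2, with 34.5% as the lowest library of sL2 and 14.8% as the highest of sBud. It was 25.9 ± 12.2% in sL1 and 27.6 ± 15.5% in sS1, where replicate 1 of each (40% and 45.5%) lay within the sL2 range. In sL2 these shares rest on 9 to 31 counts of the family per library. In MIR395, cas-MIR395-14 had 3.97 ± 2.32% of the family in sBud and 12.1 ± 3.86% in sL2, where every library was above every sBud library. Its share was 6.56 ± 5.62% in sS1 and 8.92 ± 9.36% in sL1, where replicate 3 (19.2%) was above every sL2 library. These shares are descriptions and were not tested.

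**Figure D4:**
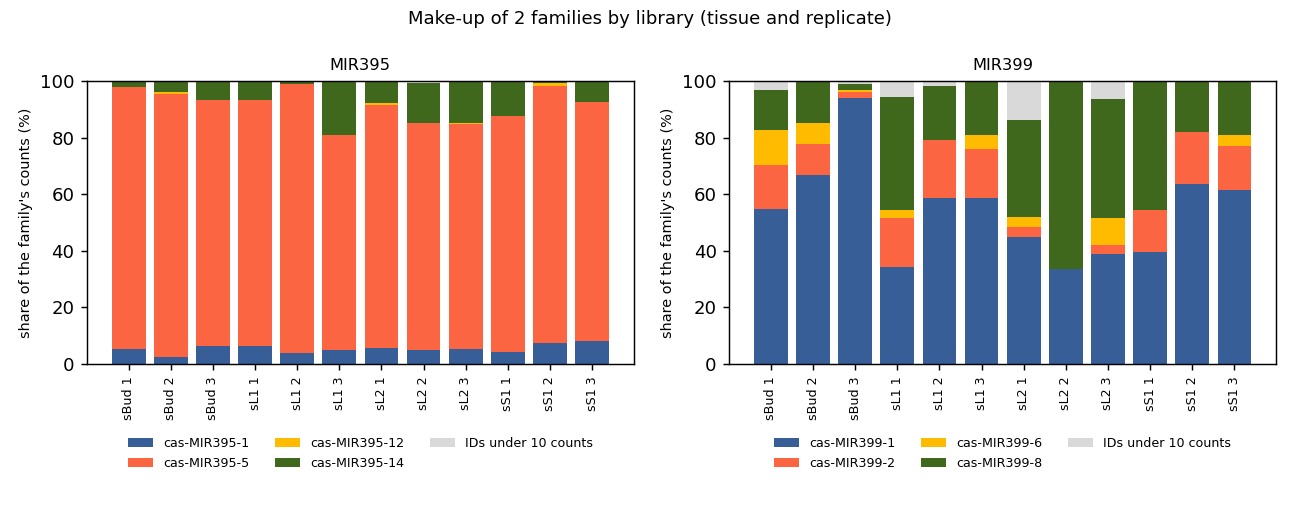
Share of each ID with 10 or more counts in the counts of its family (%), for MIR395 and MIR399, in each of the 12 libraries, named by tissue and replicate; grey is the sum of the IDs under 10 counts. cas-MIR395-5 fills most of every MIR395 bar, and cas-MIR399-8 has its highest mean share in sL2, at 47.7%.

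Tested as sums, the families gave the following DEMs with an adjusted p below 0.05. MIR408 in sBud was below each of sL1, sL2 and sS1, with log2 fold changes of -2.44, -3.19 and -3.85 (adjusted p of edgeR = 0.0440, 0.00274 and 0.00217). MIR398 was lower in sBud than in sS1, with -2.27 (adjusted p of edgeR = 0.00617). MIR399 was higher in sBud than in sL2 (2.10) and sS1 (1.73), and higher in sL1 than in sL2 (1.53), with an adjusted p of edgeR of 0.00595, 0.0171 and 0.0420. MIR395 was lower in sL1 and in sS1 than in sL2, with -1.91 and -1.89 (adjusted p of edgeR = 0.0180 and 0.0228). These 9 calls also passed with the scaling factors of the single IDs, where the values ran from -3.99 to 2.33. Without sBud replicate 2, the MIR408 values were -4.10, -4.74 and -5.50. MIR408 in sBud vs. sL2 was -2.30 without sBud replicate 3 and -2.39 without sL2 replicate 3, and in sBud vs. sS1 it was -3.05 without sS1 replicate 3. Without sL2 replicate 3, MIR399 was 2.80 in sBud vs. sL2 and 2.19 in sL1 vs. sL2. Without sBud replicate 3, MIR399 in sBud vs. sS1 fell to 0.99 and was no DEM. Scaling factors estimated on the 52 rows differed from those of the 222 IDs, most of all for sL2 replicate 2, with 0.623 against 1.18. On the ID factors, MIR395 in sBud vs. sL2 (-1.16) and MIR399 in sS1 vs. sL1 (-1.16) were no longer DEMs, at -0.71 and -1.11, while MIR408 in sS1 vs. sL1, at 1.41 and no DEM, became one, at 1.53. Other settings and leaving out single libraries also moved these 3. In all, MIR395 in sBud vs. sL2 was no DEM under 14 of 23 alternatives, among them DESeq2 (-0.99). For MIR399 in sS1 vs. sL1 it was 10 of 23, among them DESeq2 (-1.07) and limma-voom (-1.08). MIR395 in sBud vs. sL2 was no DEM without any 1 of 8 libraries (-0.78 to -0.52: sBud replicate 1 or 3, sL1 replicate 2, any of sL2, sS1 replicate 1 or 3), and was -1.78 without sBud replicate 2. MIR399 in sS1 vs. sL1 was no DEM without sL1 replicate 3 (-0.92) or sS1 replicate 1 (-1.31), 2 (-1.14) or 3 (-1.32). MIR408 in sS1 vs. sL1 became a DEM under 13 of 23 alternatives, such as DESeq2 (1.62) and without sS1 replicate 2 (1.82). It stayed no DEM under the other 10, and was 0.61 without sS1 replicate 3. MIR398 in sBud vs. sL1 (-1.56) and in sS1 vs. sL2 (1.16) was a DEM on the unadjusted p in both, though not without sL1 replicate 1 (-0.96) in the former and not without any 1 of 7 libraries in the latter, with values from 0.98 to 1.31 (2.27 without sL2 replicate 3, still a DEM). Over all 52 rows, 15.4% were DEMs in sBud vs. sL1 (11.5% with an adjusted p below 0.05), 46.2% in sBud vs. sL2 (42.3%) and 28.8% in sBud vs. sS1 (25%). The shares were 30.8% in sL1 vs. sL2 (28.8%), 7.69% in sS1 vs. sL1 (0%) and 23.1% in sS1 vs. sL2 (15.4%). Some extremes of the means were not separated from the next tissue. No DEM was found in sS1 vs. sL2 for MIR408 (0.66) or MIR399 (0.37). MIR398 was no DEM in sS1 vs. sL1 (0.70) or in sBud vs. sL2 (-1.10).

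Between sBud and sL1, DEMs among the 14 tested members numbered 5 (35.7%), all lower in sBud. The 5 include cas-MIR408-2, whose counts in these tissues were all in sL1 replicate 2. Of all 222 tested IDs, 19.4% were DEMs in sBud vs. sL1, 9.46% lower and 9.91% higher in sBud. The sBud vs. sL1 count fell to 3 without sBud replicate 2, sBud replicate 3 or sL1 replicate 1. Between sBud and sS1, 6 of 14 (42.9%) were DEMs, 4 lower and 2 higher in sBud. The lower ones include cas-MIR398-3, whose counts in these tissues were all in sS1 replicate 2. The higher ones include cas-MIR399-6, with 11 counts in sBud and 1 in sS1. The adjusted p of edgeR was 0.0616 for cas-MIR398-3 and 0.108 for cas-MIR399-6. Of all tested IDs, 29.3% were DEMs in sBud vs. sS1, 13.1% lower and 16.2% higher in sBud. In sBud vs. sL2 the 6 member DEMs, 4 lower and 2 higher in sBud, were near the share of all tested IDs, which was 43.2%, with 23.4% lower and 19.8% higher. An adjusted p below 0.05 was reached by 1 member DEM in sBud vs. sL1 (12.6% of all tested IDs), by 5 in sBud vs. sL2 (38.7%) and by 4 in sBud vs. sS1 (22.5%). The median log2 fold change of the members was -1.0 in sBud vs. sL1, -0.38 in sBud vs. sL2 and -0.09 in sBud vs. sS1, beside 0, 0 and 0.06 over all tested IDs.

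In sL1 vs. sL2, 6 members were DEMs, with cas-MIR395-1, cas-MIR395-5 and cas-MIR395-14 lower and cas-MIR399-1, cas-MIR399-2 and cas-MIR408-2 higher in sL1. The counts of cas-MIR408-2 in these tissues were all in sL1 replicate 2. Of all tested IDs, 40.5% were DEMs in sL1 vs. sL2, 21.2% lower and 19.4% higher in sL1. In sS1 vs. sL2, 6 members were DEMs, 3 in each direction, against 41.4% of all tested IDs, 21.2% lower and 20.3% higher in sS1. Those higher in sS1 include cas-MIR398-3, whose counts in these tissues were all in sS1 replicate 2. The sS1 vs. sL2 count fell to 3 without sL2 replicate 1 or 2. The fewest were found in sS1 vs. sL1, with 2 member DEMs, both higher in sS1, where 7.21% of all tested IDs were DEMs, 4.5% higher and 2.7% lower in sS1. Of these 2, cas-MIR398-3 had 60 of its 61 counts in sS1 replicate 2. The sS1 vs. sL1 count was 4 without sL1 replicate 1, 0 without sL1 replicate 2 or 3 and 1 without sS1 replicate 2 or 3. An adjusted p below 0.05 was reached by 5 member DEMs in sL1 vs. sL2 (36% of all tested IDs), by 3 in sS1 vs. sL2 (35.6%) and by 0 in sS1 vs. sL1 (0%), by edgeR in each case. The 3 in sS1 vs. sL2 include cas-MIR398-3. On the unadjusted p, DESeq2 gave 1 member DEM in sS1 vs. sL1. The median log2 fold change of the members was 0.78 in sL1 vs. sL2, 0.26 in sS1 vs. sL1 and 0.53 in sS1 vs. sL2, beside 0.11, -0.01 and -0.02 over all tested IDs. Comparisons with a tissue in common share its libraries, so these counts are not independent of each other. With DESeq, the paper reports more conserved DEMs for sBud vs. sS1 than for sBud vs. sL2, and few for sL1 vs. sL2. Here the shares of all tested IDs were 29.3% in sBud vs. sS1 and 43.2% in sBud vs. sL2. They were 40.5% in sL1 vs. sL2 and 7.21% in sS1 vs. sL1. Whether the labels sL2 and sS1 of the deposited counts account for this difference was not tested.

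Of other families tied to nutrients in plants, a list of 7 (MIR169, MIR393, MIR778, MIR826, MIR1444, MIR2111 and MIR5090) was looked up. Only MIR169, MIR393 and MIR2111 had IDs here, of which 7 were tested. Of the 7, 2 were DEMs in sBud vs. sL1, 3 in sBud vs. sL2 and 2 in sBud vs. sS1, where 19.4%, 43.2% and 29.3% of all tested IDs were DEMs. In sL1 vs. sL2, sS1 vs. sL1 and sS1 vs. sL2, edgeR gave 0 of the 7 an unadjusted p below 0.05, while DEMs were 40.5%, 7.21% and 41.4% of all tested IDs. MIR169, which targets subunits of the transcription factor NF-Y and responds to nitrogen in Arabidopsis, reached 41.0 ± 14.2 CPM in sBud (mean ± SD, n = 3) against 9.19 ± 3.23 in sL1, 6.01 ± 6.60 in sL2 and 5.09 ± 3.91 in sS1. All sBud libraries of MIR169 lay above all others. MIR2111, a family induced by phosphate shortage in Arabidopsis, had 13.5 ± 4.41 CPM in sBud and 42.2 ± 26.8 in sL2, and cas-MIR2111-1 was a DEM between them (log2 fold change -1.62, SE 0.57, adjusted p of edgeR = 0.0330). Unlike MIR399, it was thus lower in sBud than in sL2. The sL2 libraries of MIR2111 ran from 21.1 to 72.4 CPM. Fold changes of MIR169, MIR393 and MIR2111 were not recomputed under the alternatives or with single libraries left out.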

How the data were processed

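Small RNA libraries of 4 tissues, with 3 libraries each, were analysed from the counts that the authors deposited, 1 file per library. According to the methods, adaptors and low-quality or short reads had been removed, reads of other ncRNA classes set aside and the rest matched to plant miRNAs of miRBase with few mismatches. The methods name HISAT2 for comparing reads with tea and Arabidopsis genomes and BLAST for comparing miRNAs with miRBase. The deposited counts are not normalized, and the sources used here do not say which of these steps gave the counts or how reads matching several IDs were assigned. In R 4.3.3, edgeR 4.0.16 (TMM, glmQLFit, glmQLFTest) was fitted once to all 12 libraries for the 222 IDs with a total of 10 or more. It was also fitted to 52 rows of counts summed by family name with subfamilies joined. IDs without a family name were kept there as rows of their own. Benjamini-Hochberg adjustment ran over all tested rows. The SE is the log2 fold change divided by the root of F. CPM of IDs and family sums use the TMM factors of the ID table. Every one of the 7 families and every member with 10 or more counts is named, with fold changes for DEMs. Alternatives were DESeq2 1.42.0, limma-voom (limma 3.58.1), other scalings and filters, the 5 most abundant IDs left out, adjusted p, fits of 2 tissues, subfamilies apart, a replicate block and each library left out. The use of ID factors for the test of family sums was added after seeing the data. The members, the lists and the tests were chosen with earlier results of these data known. The fits were also run on simulated data, but the outcome is not given here, so no conclusion is drawn from it. Replicate libraries differed by more than counting noise (chi-square over its degrees of freedom, 16.1 to 124), so none was treated as a repeat deposit of another. This does not show that they came from separate plants, and p-values measure only the spread between these libraries, which may be technical.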

Additional observations from a re-analysis of the deposited data

How the results depend on the processing

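All 45 fold changes recomputed kept their direction under every alternative that gave a value other than 0. On the unadjusted p, 22 also kept their side of the thresholds. The number of member DEMs in sBud vs. sL1, 5 as reported, was 3 with DESeq2, 3 with limma-voom and 1 by adjusted p, and ran from 3 to 6 with 1 library left out. In sS1 vs. sL1, with 2, it was 1 with DESeq2 and 0 by adjusted p, and ran from 0 to 4. In sS1 vs. sL2, with 6, it was 3 by adjusted p and ran from 3 to 7. The counts of the other comparisons stayed within 1.5 times the reported value, from 4 to 8. So did the number of families that differed among the tissues, from 3 to 5. The 5 came from the fit with subfamilies kept apart, and counts rows of subfamilies rather than whole families. Without sL1 replicate 2, cas-MIR408-2 had 0 counts in all of sBud, sL1 and sL2, and its fitted change there was 0. The block also ended the call of cas-MIR408_2-1 in sS1 vs. sL1 (1.60). With the replicate number as a block, member DEMs numbered 5, 6 and 6 for sBud vs. sL1, sL2 and sS1, 7 for sL1 vs. sL2, 2 for sS1 vs. sL1 and 6 for sS1 vs. sL2. The labels do not say that a number pairs libraries. Deviations of same-numbered libraries had a median correlation of 0.01 over the tested IDs (-0.15 to 0.17 over 18 pairs), and 4 of 12 libraries correlated best with one of their own number. Without TMM factors, the median log2 fold change of all tested IDs moved by -0.26 in sS1 vs. sL2, 0.18 in sBud vs. sS1 and -0.15 in sL1 vs. sL2, and with RLE by -0.12 in sS1 vs. sL2.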

Other observations

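Some members departed from their own family within single libraries, which were picked out after their values were seen. In sL1 replicate 2, cas-MIR395-5 was at its highest of the sL1 libraries (1157 CPM), whereas cas-MIR395-14 was at its lowest (9.88 CPM, 0.813% of the family's counts). In sS1 replicate 2, cas-MIR395-14 had 3 counts (0.769% of the family), against 59 and 38 counts in the other sS1 libraries. The same library held 60 of the 61 counts of cas-MIR398-3, and sL1 replicate 2 held 39 of the 57 counts of cas-MIR408-2. Neither ID was counted in any library of sBud or sL2.

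The copper families did not always move together from library to library. In sL1, cas-MIR398_2-1 was lowest in replicate 2 (680.1 CPM) and cas-MIR408_2-1 in replicate 3 (131 CPM). In sBud, replicate 3 was the highest for the former (1005 CPM) and replicate 2 for the latter (147 CPM). In sL2 and in sS1, replicate 3 was the highest for both. Within a tissue, the highest library was up to 6.31 times the lowest for cas-MIR398_2-1, in sL1, and up to 8.86 times for cas-MIR408_2-1, in sBud.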
